A study of Mus musculus with 6 samples.

Results

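The homeobox genes of the HoxB, HoxC and HoxD clusters, the Cdx genes and the Meis and Pbx genes were followed in day 4 embryoid bodies (EBs) that lacked a functional EVX1 and in wildtype EBs. The members were chosen by gene symbol alone (Hoxb, Hoxc or Hoxd with a number, Cdx1, Cdx2, Cdx4, Meis or Pbx with a number), which gave 38 of the 23353 genes measured by RNA-seq: 10 HoxB, 9 HoxC, 9 HoxD, 3 Cdx, 3 Meis and 4 Pbx genes. At least 1 read was found for 34 of the 38, and 15 were abundant enough to be tested. Of these, Hoxb1, Hoxb2, Cdx2 and Meis2 were lower in the edited EBs, by 1.63- to 3.53-fold, and no member was higher.

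EBs are floating aggregates in which mouse embryonic stem cells (mESCs) differentiate. Both groups were W9.5 mESCs grown as EBs to day 4 in medium that held serum and no LIF, the factor that keeps mESCs undifferentiated. The wildtype group was the unedited parental line, with 3 libraries. The EVX1-Δfs group, also with 3 libraries, was clone 14, a single CRISPR-Cas9 clone that carries small frameshift deletions on both Evx1 alleles in exon 2, within the part that encodes the homeodomain. Differentiations of both lines were set up side by side, and each of the 3 replicates was set up on a different day. Since all EVX1-Δfs libraries come from 1 clone, an effect of the edit and a peculiarity of that clone cannot be told apart.

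Hox genes encode homeodomain transcription factors that give cells along the head-to-tail axis their position. They lie in clusters, and genes at the 3′ end of a cluster (low numbers) are switched on earlier and further towards the head than those at the 5′ end (high numbers). Cdx factors are homeodomain proteins of the posterior embryo that act on Hox genes, and Meis and Pbx proteins, of the TALE class of homeodomain factors, bind DNA together with Hox proteins. In the gastrulating embryo, the first Hox genes and the Cdx genes come on in the posterior primitive streak, where Evx1 is also expressed.

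The edit is shown by its guide, and the members that differed by their promoters. The guide used to cut Evx1 lies on the plus strand at chr6:52265847-52265866 (mm9), inside exon 2, and had 1 exact match on the chromosome. Capitals mark the adjacent motif (PAM) that Cas9 needs.
Evx1 guide: ccagatgcgccgataccgcaCGG
RefSeq promoter windows (GRCm38.p6) of 300 bases, from 250 before to 50 after a gene's start, were held for 20 of the 38 members, in 21 windows, among them Hoxb1, Cdx2 and Meis2. The 250 bases before the start of these 3 genes are printed 5′ to 3′ on the gene's own strand, at chr11:96365508-96365757 (plus), chr5:147307250-147307499 (minus) and chr2:116064620-116064869 (minus). Capitals mark the homeodomain core TAAT, read on either strand, and, for Hoxb1, also a PBX-HOX match.
Hoxb1: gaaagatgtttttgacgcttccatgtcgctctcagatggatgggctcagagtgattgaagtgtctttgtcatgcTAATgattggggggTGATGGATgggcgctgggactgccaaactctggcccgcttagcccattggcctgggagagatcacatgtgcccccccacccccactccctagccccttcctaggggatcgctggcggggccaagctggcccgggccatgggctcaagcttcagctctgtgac
Cdx2: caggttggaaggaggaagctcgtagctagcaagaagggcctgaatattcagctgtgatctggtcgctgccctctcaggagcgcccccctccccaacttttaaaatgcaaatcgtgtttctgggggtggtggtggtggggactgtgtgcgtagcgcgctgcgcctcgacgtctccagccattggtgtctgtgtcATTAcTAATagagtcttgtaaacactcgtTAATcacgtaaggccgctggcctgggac
Meis2: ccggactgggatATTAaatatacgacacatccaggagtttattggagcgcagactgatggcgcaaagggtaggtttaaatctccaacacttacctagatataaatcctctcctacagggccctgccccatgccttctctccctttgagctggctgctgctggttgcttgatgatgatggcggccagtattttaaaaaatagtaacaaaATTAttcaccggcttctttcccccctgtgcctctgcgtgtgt
The PBX-HOX motif was searched as TGATNNAT, the MEIS motif as TGACAG, the CDX motif as TTTATG and the homeodomain core as TAAT, each on both strands, and matches of TAAT may lie inside those of other motifs. A PBX-HOX match was present in 3 of the 21 windows of members, against 8.85% of all 32851 promoter windows. The CDX motif was in 4 of 21 (11.9% of all windows), TAAT in 13 of 21 (58%), and the MEIS motif in 0 of 21 (19.2%). These are matches of letters and not binding sites.

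The libraries held 7597879 to 9914471 reads assigned to genes, and 15998 to 16479 genes had a read in each. Ribosomal Rn45s took 1.87% to 4.95% of reads, with no separation of the groups. Values are normalized counts, which are reads divided by 1 factor per library that removes differences in depth. Evx1 itself had 2358, 2176 and 2400 normalized counts in the wildtype libraries (replicates 1 to 3, in this order throughout) and 2354, 2516 and 2012 in the EVX1-Δfs libraries. Small frameshifts leave the transcript countable, so this level does not check the genotype. Markers of the primitive streak were present: 6 of 6 passed the filter on low values, and T alone reached 5299 normalized counts. Differences are log2 fold changes of EVX1-Δfs over wildtype on the log2(normalized count + 1) scale, which understates changes of low genes. They were tested with limma over 13136 genes with at least 10 normalized counts in at least 3 libraries and called at a Benjamini-Hochberg adjusted p under 0.05.

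Among the 15 members that passed this filter, 4 were called lower, against 2.95% of all tested genes called lower, and 0 were called higher, against 2.08% called higher. At an unadjusted p under 0.05, 8 members had a lower level in EVX1-Δfs, against 12.4% of all tested genes, and 0 a higher one, against 10.6%. With edgeR 5 were called lower, against 2.87% of all genes, and with DESeq2 4, against 4.45%, and 0 were higher with either. DESeq2 gave no adjusted p to Hoxb2, Hoxd1, Hoxd8, Hoxd13, Cdx1 and Cdx4, and its 4.45% is over the 11623 genes that had one. The log2 fold change was negative in 11 of 15, as in 49.9% of all tested genes, and its median was -0.39 beside 0.00 over all. In 8 of 15 (Hoxb1, Hoxb2, Hoxd9, Cdx1, Cdx2, Cdx4, Meis2 and Pbx2), every wildtype library lay above every EVX1-Δfs library, a pattern found in 14.7% of all tested genes. In 0 of 15 was the order the reverse. Cdx1 reached the minimum of the filter in wildtype libraries only, and Hoxb2 and Cdx4 in 1 EVX1-Δfs library each, so the filter itself let in members that were low in EVX1-Δfs, and these counts are a description. As these are bulk samples, fewer cells that express a gene and less RNA per cell cannot be told apart.

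**Figure D1:**
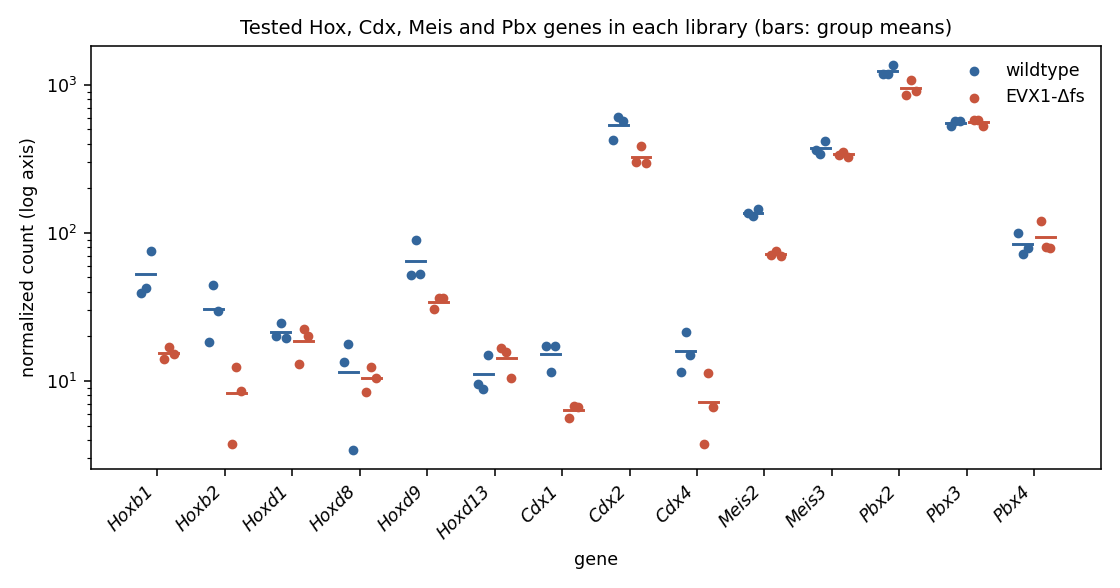
Normalized counts (log axis) of 14 of the tested members in each library, 3 wildtype and 3 EVX1-Δfs, with the mean of each genotype as a bar. In 8 genes, among them Hoxb1 at 39.2 to 75.6 against 14.0 to 16.9, the genotypes do not overlap, and in each of these the wildtype libraries are the higher ones.

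The largest fold changes among the 15 tested members were at the 3′ end of HoxB on chromosome 11. Hoxb1 (ENSMUSG00000018973.2, chr11:96227066-96229570, plus strand, mm9) is known for its role in the hindbrain and is among the first Hox genes on in the embryo. It had 39.2, 42.5 and 75.6 normalized counts in the wildtype libraries, and 14.0, 16.9 and 15.2 in EVX1-Δfs. All wildtype values were above all EVX1-Δfs values, and wildtype replicate 3 stood well above the other two. Its log2 fold change was -1.65 ± 0.30 (SE, limma, adjusted p = 0.00343), or 3.13-fold lower.

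Hoxb2 (ENSMUSG00000075588.4, chr11:96212946-96217003, plus strand), the next gene of the cluster, which also patterns the hindbrain, had 18.2, 44.2 and 29.8 normalized counts in wildtype and 3.73, 12.4 and 8.58 in EVX1-Δfs. The groups did not overlap, and wildtype replicate 1 and EVX1-Δfs replicate 2 came closest to each other. The log2 fold change was -1.82 ± 0.43 (SE, limma, adjusted p = 0.0176), or 3.53-fold lower. It rested on 95 reads in wildtype and 24 in EVX1-Δfs, and the call was lost without wildtype replicate 2 (log2 fold change -1.52, adjusted p = 0.0697) or without EVX1-Δfs replicate 1 (-1.40, adjusted p = 0.0819; both limma). Of the exon bases of Hoxb2, 49.4% also lie in Hoxb3os on the opposite strand. The study names only standard counting settings, so reads of this antisense gene cannot be told apart from those of Hoxb2 with certainty.

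The other HoxB genes were detected below the filter, apart from Hoxb13, which had 0 reads in every library. The 7 genes from Hoxb3 to Hoxb9 held 131 reads in the 3 wildtype libraries together and 51 in EVX1-Δfs. Their summed normalized counts were 34.4, 56.6 and 35.5 in wildtype and 22.4, 5.64 and 21.0 in EVX1-Δfs, so the groups did not overlap. Hoxb4 had 10, 10 and 9 reads in wildtype and 2, 1 and 4 in EVX1-Δfs. Hoxb6 had 8, 19 and 11 against 5, 0 and 5. These were the only HoxB genes below the filter without overlap between the groups. Of all 19 detected members below the filter, 3 had no overlap with wildtype higher, and 0 with EVX1-Δfs higher. The share among all genes below the filter was not counted, so this is a description. Among tested genes, 14.7% had every wildtype library above. Hoxb3 (28 reads in wildtype, 13 in EVX1-Δfs), Hoxb8 (19 and 5) and Hoxb5 (5 and 2) had fewer reads in EVX1-Δfs with overlap, while Hoxb7 (6 and 7) and Hoxb9 (6 and 7) were near equal. Hoxb7 and Hoxb8 share 1069 exon bases on the same strand, so their few reads may be split or dropped between them.

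No filter was then applied, to see whether any of the 19 members below it would pass. Of these 19, 1 was called lower, Hoxb4 (log2 fold change -1.78, limma, adjusted p = 0.0446), and 0 higher, where 1.73% of all genes were called lower without a filter. At an unadjusted p under 0.05 there were 5 of the 19, 4 lower and 1 higher, against 9.62% and 8.69% of all genes. Beside Hoxb4 these were Hoxb6 (log2 fold change -2.00, limma, adjusted p = 0.0633), Hoxb8 (-1.44, limma, adjusted p = 0.175), Hoxd11 (-1.12, limma, adjusted p = 0.256) and, in the other direction, Meis1 (1.06, limma, adjusted p = 0.258). The shares given are over all 18245 genes with a read, abundant ones included. The share among genes below the filter was not counted, so the counts of these 19 members are a description.

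**Figure D2:**
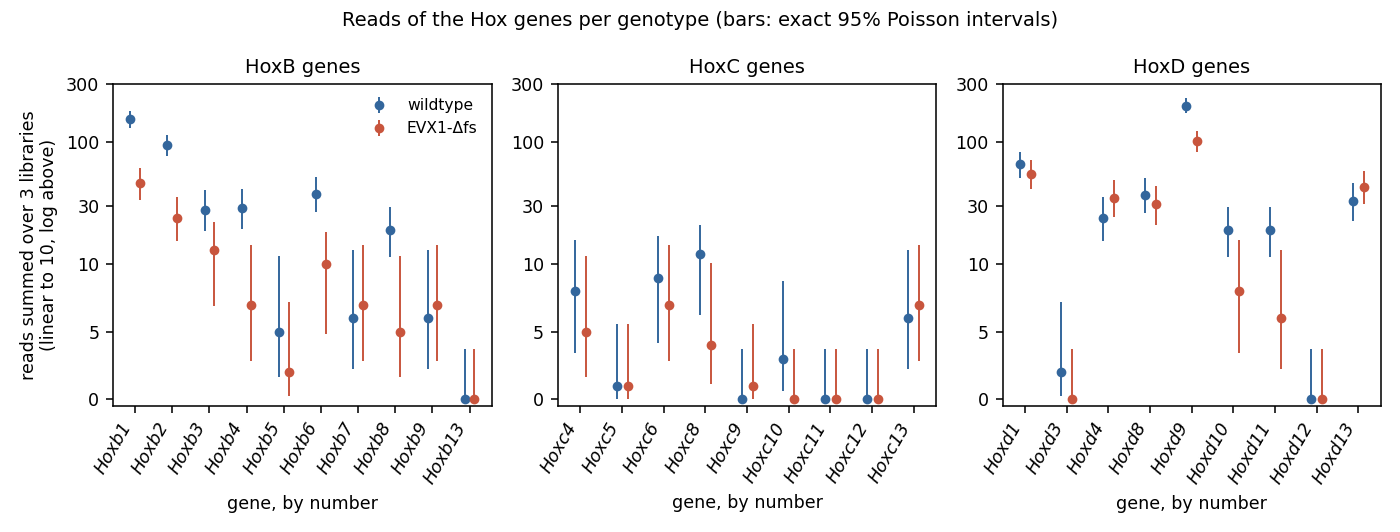
Summed reads of each HoxB, HoxC and HoxD gene over the 3 libraries of each genotype, in order of gene number (axis linear to 10 and logarithmic above), with exact Poisson intervals at 95% that cover counting error only. Hoxb1 (155 reads in wildtype, 46 in EVX1-Δfs), Hoxb2 (95 and 24) and Hoxd9 (201 and 103) have the most reads in wildtype, where in EVX1-Δfs Hoxd9 is followed by Hoxd1 (55), and the HoxC genes stay at 12 or fewer.

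The HoxD cluster, on chromosome 2, had 4 tested genes, of which 0 were called. Hoxd9 (ENSMUSG00000043342.8, chr2:74535737-74538265, plus strand), from the middle of the cluster, was its most abundant gene, with 51.7, 89.4 and 52.7 normalized counts in wildtype and 30.8, 36.1 and 36.2 in EVX1-Δfs. The groups did not overlap, and its log2 fold change of -0.85 ± 0.25 (SE) fell just short of the threshold (limma, adjusted p = 0.0533). With edgeR, Hoxd9 was among the 5 members called lower (adjusted p = 0.0421), beside the 4 that limma called. With trends in GC content and length removed, Hoxd9 was further from the threshold, at -0.66 (limma, adjusted p = 0.188).

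Hoxd1, the 3′-most HoxD gene, had 20.1, 24.8 and 19.5 normalized counts in wildtype and 13.1, 22.6 and 20.01 in EVX1-Δfs, and the groups overlapped. Its log2 fold change was -0.23, with a 95% interval from -0.92 to 0.47 (limma, adjusted p = 0.73). Hoxd8 ranged from 3.43 to 17.7 in wildtype and from 8.40 to 12.4 in EVX1-Δfs (log2 fold change 0.09, limma, adjusted p = 0.934), and the sign of its difference turned without wildtype replicate 3 or EVX1-Δfs replicate 2, with edgeR and with DESeq2 at its defaults. Hoxd13, the 5′-most gene and best known from the limbs and the tail end of the body, had 9.57, 8.85 and 14.9 against 16.8, 15.8 and 10.5 (0.35, limma, adjusted p = 0.642), with overlap. The paralogues Hoxb1 and Hoxd1 were set side by side after their values had been seen. The log2 ratio of Hoxb1 to Hoxd1 was 1.20 ± 0.619 (SD, n = 3) in wildtype and -0.224 ± 0.275 in EVX1-Δfs, with an exact permutation p of 0.1 (two-sided), the smallest that 3 against 3 allows.

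Below the filter, Hoxd4 had 24 reads in wildtype and 35 in EVX1-Δfs, 20 of them in replicate 2, and 67.4% of its exon bases are shared with Hoxd3 on the same strand. Hoxd10 had 19 and 8 reads, Hoxd11 19 and 6 and Hoxd3 2 and 0. Of these, Hoxd11 alone showed no overlap between the groups, with 11.5, 3.54 and 3.43 normalized counts in wildtype and 0.934, 2.26 and 2.86 in EVX1-Δfs. Hoxd12 had 0 reads in every library, for which an exact Poisson interval over the 3 libraries of a genotype allows up to 3.69 reads.

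HoxC was the least expressed of these clusters, with 39 reads in all wildtype libraries and 25 in all EVX1-Δfs libraries. Hoxc4, Hoxc5, Hoxc6, Hoxc8, Hoxc9, Hoxc10 and Hoxc13 had between 0 and 12 reads per genotype, and Hoxc11 and Hoxc12 had 0. Hoxc8 was the only HoxC gene with a read in all 3 libraries of a genotype (7, 4 and 1 in wildtype, 2, 2 and 0 in EVX1-Δfs). No HoxC gene passed the filter, and without it none had an adjusted or an unadjusted p under 0.05 in limma.

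All 3 Cdx genes passed the filter, but the wildtype libraries alone were enough to let in Cdx1 and Cdx4. In each of the 3 genes every wildtype library lay above every EVX1-Δfs library, as in 14.7% of all tested genes. For Cdx1 and Cdx4 the filter favoured this order, so it is a description. Cdx2 (ENSMUSG00000029646.3, chr5:148112381-148118846, minus strand), which is needed for the posterior body and, earlier, for the trophoblast, had 424, 604 and 574 normalized counts in wildtype and 299, 385 and 295 in EVX1-Δfs. Its log2 fold change was -0.70 ± 0.15 (SE, limma, adjusted p = 0.00903), or 1.63-fold lower. Cdx1 had 17.2, 11.5 and 17.2 against 5.60, 6.77 and 6.67 (log2 fold change -1.13 ± 0.43, SE, limma, adjusted p = 0.117). Cdx4 had 11.5, 21.2 and 14.9 against 3.73, 11.3 and 6.67, the closest libraries being near equal (-1.10 ± 0.46, SE, limma, adjusted p = 0.153). Neither Cdx1 nor Cdx4 passed the threshold, and with 46 and 49 reads in wildtype their intervals ran from -2.02 to -0.24 and from -2.05 to -0.15.

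Of the 9 trophoblast markers, which include Cdx2, 6 were tested and 1 was lower, Cdx2 itself. Their summed level was 3544 to 4078 normalized counts in wildtype and 2765 to 3635 in EVX1-Δfs, so the ranges overlapped. Krt18 (2690 against 2456 normalized counts), Gata3 (241 against 206) and Tfap2c (231 against 225) were the most abundant apart from Cdx2, and Elf5 and Tpbpa were near 0, with 2 reads of Elf5 in wildtype and 1 of Tpbpa in EVX1-Δfs. Of the 6 primitive streak and nascent mesoderm markers, which include the edited gene Evx1, 5 were lower, against 2.95% of all tested genes. These were T (log2 fold change -0.58), Mixl1 (-0.84), Eomes (-0.50), Mesp1 (-1.02) and Tbx6 (84.7 against 41.7 normalized counts). Their limma adjusted p-values ran from 0.000181 for Mesp1 to 0.0194 for Eomes. Evx1 was not called (-0.016). The summed level of all 6 was 11820 to 14485 in wildtype and 8232 to 10130 in EVX1-Δfs. The part that these cells have in the lower Cdx2, Hoxb1, Hoxb2 and Meis2 was not tested.

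**Figure D3:**
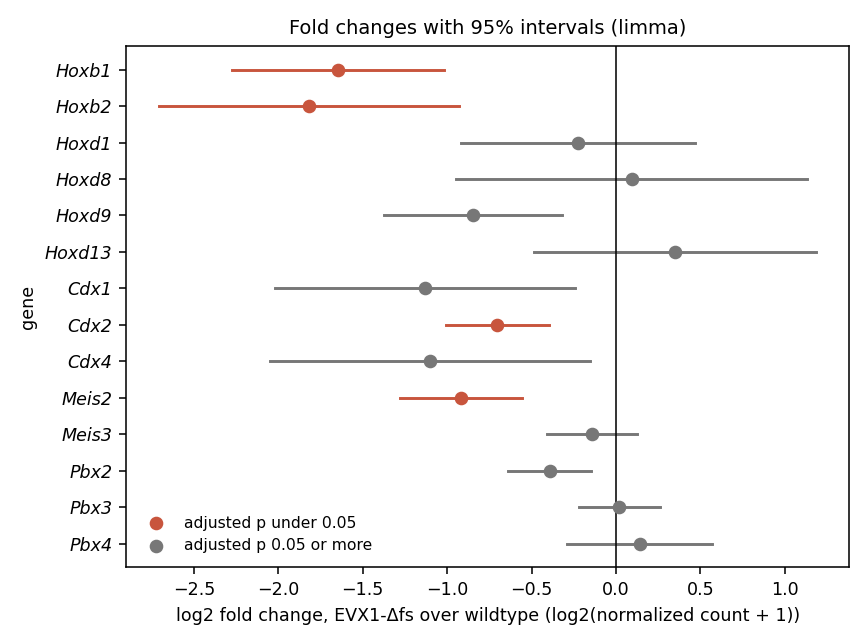
Log2 fold change (EVX1-Δfs over wildtype, limma) of 14 of the tested members with its 95% interval, grouped by family, in red where the adjusted p was under 0.05. Hoxb1, Hoxb2, Cdx2 and Meis2 were called lower, and Hoxd9 and Pbx2 lie just outside the threshold at adjusted p-values of 0.0533 and 0.053.

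Among the Meis genes, Meis2 (ENSMUSG00000027210.11, chr2:115688800-115891575, minus strand) differed and Meis3 was not called. Meis2 had 136, 130 and 145 normalized counts in wildtype and 71.0, 75.6 and 69.6 in EVX1-Δfs, so the groups were far apart and narrow. Its log2 fold change was -0.92 ± 0.18 (SE, limma, adjusted p = 0.00427), or 1.89-fold lower. Meis3 had 364, 340 and 419 against 334, 353 and 328, with overlap (log2 fold change -0.14, 95% interval -0.41 to 0.13, limma, adjusted p = 0.544). The log2 ratio of Meis2 to Meis3, a pair chosen after the values were seen, was -1.44 ± 0.0734 (SD, n = 3) in wildtype and -2.22 ± 0.0064 in EVX1-Δfs, a difference of -0.78 with an exact permutation p of 0.1 (two-sided), again the smallest possible. Meis1, best known as a cofactor in blood-forming cells, stayed below the filter at 2, 5 and 7 reads in wildtype and 17, 8 and 7 in EVX1-Δfs. The groups overlapped in normalized counts, at 1.91 to 8.02 and 6.67 to 15.9.

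Pbx proteins are partners of both Hox and Meis proteins. None of Pbx2, Pbx3 and Pbx4 was called by limma, where Pbx2 alone had an unadjusted p under 0.05. Pbx2 (ENSMUSG00000034673.7, chr17:34728211-34734345, plus strand) was the most abundant, with 1182, 1186 and 1356 normalized counts in wildtype and 853, 1073 and 915 in EVX1-Δfs. The groups did not overlap, and the log2 fold change was -0.39 ± 0.12 (SE, limma, adjusted p = 0.0530). Pbx2 passed the threshold with DESeq2 (adjusted p = 0.031), and with limma without EVX1-Δfs replicate 2 (adjusted p = 0.0365). With trends in GC content and length removed, Pbx2 was further from the threshold, at -0.28 (limma, adjusted p = 0.191). DESeq2 called 4 members lower, Hoxb1, Cdx2, Meis2 and Pbx2, and gave Hoxb2, among others, no adjusted p.

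Pbx3 and Pbx4 showed overlap between the groups. Pbx3 ranged from 530.0 to 567 normalized counts in wildtype and from 523 to 583 in EVX1-Δfs (log2 fold change 0.02, 95% interval -0.22 to 0.26). For Pbx4 the ranges were 71.7 to 101 and 79.1 to 120.4 (0.14, interval -0.29 to 0.57). The sign turned for Pbx3 when trends with GC content and length were removed, and for both Pbx3 and Pbx4 without EVX1-Δfs replicate 1. The log2 ratio of Pbx2 to Pbx3, also chosen after the values were seen, was 1.16 ± 0.0949 (SD, n = 3) in wildtype and 0.745 ± 0.173 in EVX1-Δfs, with an exact permutation p of 0.1 (two-sided), again the smallest possible. As the pair was picked from values already seen, this p is a description.

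Per kilobase of exon, the members spanned a wide range of levels in wildtype. Pbx2 was highest at 341 ± 27.3 normalized counts per kb (SD, n = 3), followed by Cdx2 at 236 ± 42.6 and Meis3 at 206 ± 22.3, whose spreads overlapped. Pbx3, at 86.6 ± 3.26, lay below these 3 genes. Hoxd9 (29.6 ± 9.84), Pbx4 (28.4 ± 5.06) and Hoxb1 (22.6 ± 8.66) followed, again with overlapping spreads. The lowest levels per kb were those of Meis2 (11.6 ± 0.653), Hoxd1 (11.5 ± 1.56), Hoxb2 (9.30 ± 3.95), Cdx1 (8.74 ± 1.88), Cdx4 (8.08 ± 2.52), Hoxd13 (4.47 ± 1.33) and Hoxd8 (4.19 ± 2.67). In this order, the spreads of adjacent genes overlapped. With the longest transcript in place of all exon bases, 11 of the 15 genes kept their rank, but some levels moved. Pbx3 then stood at 194 ± 7.31 (SD, n = 3), within the spread of Meis3 at 210 ± 22.8. Meis2 stood at 24.9 ± 1.41, above Hoxd1 at 11.5 ± 1.56. The place of Pbx3 and Meis2 therefore depends on the length used.

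**Figure D4:**
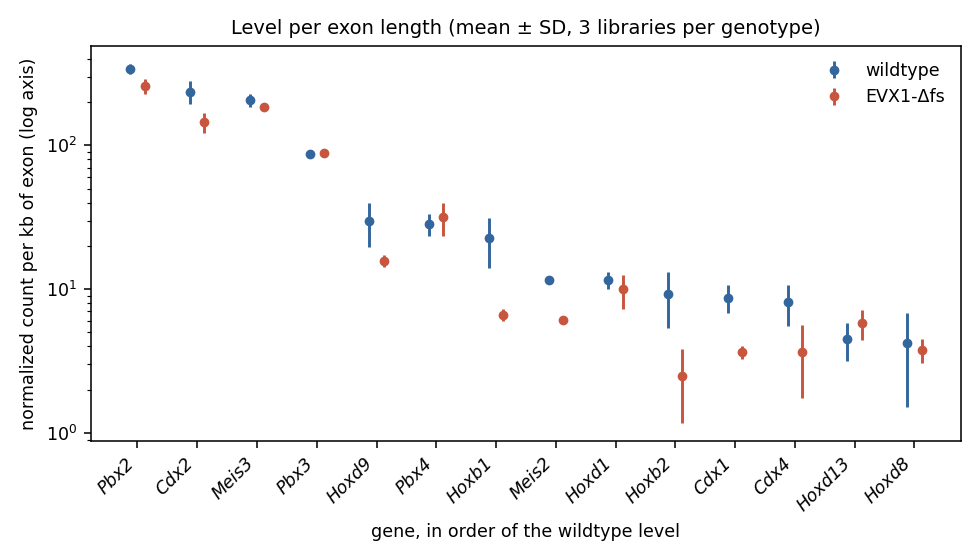
Normalized count per kilobase of exon (log axis) for 14 of the tested members in wildtype and EVX1-Δfs, as mean ± SD of 3 libraries, in order of the wildtype level. Pbx2 (341), Cdx2 (236) and Meis3 (206) lead, and the Hox genes start with Hoxd9 at 29.6.

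The calls of the members were compared across ways of handling the data. The replicate number was added to limma as a block. It was taken to mark a shared day of differentiation, which the library titles do not state. The same 4 members stayed lower, against 1.11% of all genes. Their adjusted p-values (limma) were 0.0206 for Hoxb1, 0.0296 for Hoxb2, 0.0207 for Cdx2 and 0.024 for Meis2. The log2 fold changes of all genes were related to GC content (Spearman's rho -0.461 across 12977 genes, which are not independent replicates), genes richer in GC being lower in EVX1-Δfs. With trends in GC and length removed, the 4 members were still called lower, against 1.4% of all genes. Hoxb1 then stood at -1.54 (limma, adjusted p = 0.00594), Hoxb2 at -1.76 (0.0313), Cdx2 at -0.55 (0.0434) and Meis2 at -1.13 (0.000791). Hoxd9 and Pbx2 moved away from the threshold (limma, adjusted p = 0.188 and 0.191).

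**Figure D5:**
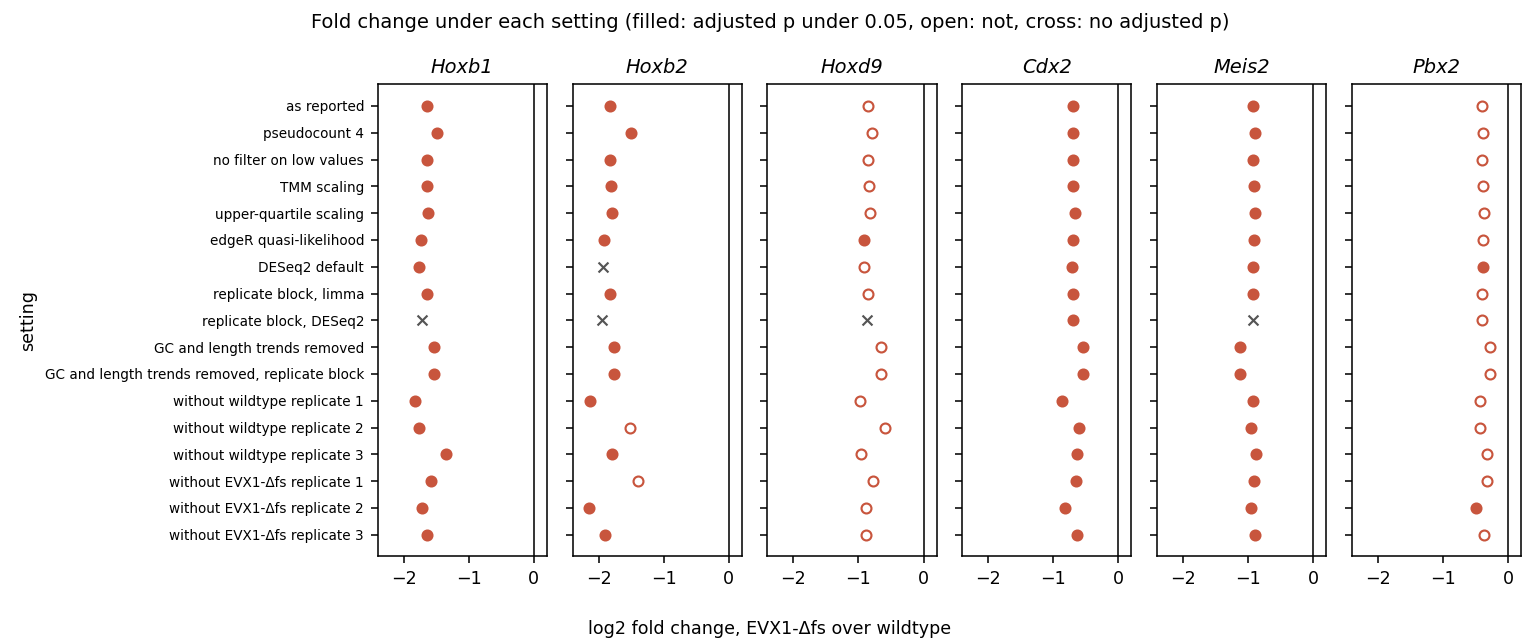
Log2 fold change (EVX1-Δfs over wildtype) of Hoxb1, Hoxb2, Hoxd9, Cdx2, Meis2 and Pbx2 as reported and under each alternative setting, filled where the adjusted p was under 0.05, open where it was not and a cross where none was given. Every plotted value is below 0, Hoxd9 passes with edgeR only, and Hoxb2 loses its call without wildtype replicate 2 and without EVX1-Δfs replicate 1.

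Lists of related genes were set beside the members. Among the 11 other TALE homeobox genes, 7 were tested and 0 called, with a median log2 fold change of 0.00 and a range from -0.36 to 0.22. Of the 15 genes that flank the HoxB, HoxC and HoxD clusters, 13 were tested, 0 were lower and 2 higher. Of all tested genes, 2.95% were called lower and 2.08% higher. The 2 higher flanking genes were Gip, which encodes a gut hormone and lies beyond the HoxB cluster (2 reads in wildtype, 45 in EVX1-Δfs, limma, adjusted p = 0.00349), and Cbx5, which encodes a heterochromatin protein and lies beside HoxC (803 against 1071 normalized counts, log2 fold change 0.42, limma, adjusted p = 0.0383). Gip reached the minimum of the filter in EVX1-Δfs libraries only, so the filter let it in through the group where it was high.

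Of 20 signals and chromatin regulators known to act on Hox or Cdx genes, 18 were tested, with 4 lower and 1 higher. The shares among all tested genes were 2.95% lower and 2.08% higher. Wnt3a, a ligand that acts upstream of Cdx genes in the posterior embryo, was lower with a log2 fold change of -1.75 (39.8 against 12.2 normalized counts, limma, adjusted p = 0.0131). Wnt3 was lower by a log2 fold change of -0.55 (limma, adjusted p = 0.00877), as was T at -0.58 (limma, adjusted p = 0.0122). T is also counted among the primitive streak markers. Cyp26a1, which degrades retinoic acid, an inducer of 3′ Hox genes, was lower at -1.11 (1028 against 480 normalized counts, limma, adjusted p = 4.94e-05). Fgf4 was higher at 0.60 (limma, adjusted p = 0.0221). The polycomb genes Ezh2, Eed, Suz12 and Bmi1, the Hox activators Mll1 and Kat6a and the insulator gene Ctcf were not called, with log2 fold changes from -0.03 for Bmi1 to 0.41 for Suz12.

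Markers of other cells that EBs may hold were counted in the same way, beside 2.95% of all tested genes called lower and 2.08% higher. Of 7 haemangioblast markers, 5 were tested and 3 were lower, Kdr (log2 fold change -0.91), Etv2 (-1.10) and Lmo2 (-0.64), with summed levels of 2880 to 3814 and 1655 to 1921. Tal1 (-0.49, limma, adjusted p = 0.0947) and Gata1 (0.67, limma, adjusted p = 0.339) were not called. Hba-x (1 read in wildtype, 5 in EVX1-Δfs) and Hbb-bh1 (9 and 12) were below the filter. Of 5 gut endoderm markers, 3 were tested and 2 were higher, Foxa2 (1.08) and Sox17 (0.91), with summed levels of 642 to 910 and 851 to 1114. Most of these sums was Cldn6 (700 against 752 normalized counts), which was not called (0.11, limma, adjusted p = 0.67). Of the 4 epiblast markers 0 were called, with a median log2 fold change of 0.40 and summed levels of 11907 to 18564 and 15237 to 19364. Nanog (0.40, adjusted p = 0.0552), Sox2 (0.41, adjusted p = 0.0559) and Dnmt3b (0.41, adjusted p = 0.0828) did not pass the threshold in limma. Of 5 visceral endoderm markers 1 was tested and 0 called, with Afp, Ttr and Apoa1 at 5 or fewer reads per genotype. The part of these cells in the members' differences was not tested.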

How the data were processed

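RNA-seq of 6 libraries was analysed, 3 per genotype, grouped by their labels. As the methods and the deposited labels describe, the authors enriched mRNA, sequenced it on the Ion Proton, mapped reads to mm9 with TopHat2 and then TMAP, counted them with HTSeq and used DESeq2, each without a stated version. The deposited table holds a signal per gene, read counts divided by 1 factor per library. All values (100%) came out as whole reads within 0.1 read, and the factors differed from DESeq2's size factors by at most 0.00522%. The 6 libraries held 7597879 to 9914471 such reads.

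Values were tested with limma (3.58.1, R 4.3.3, mean-variance trend, two-sided) on log2(value + 1), over genes with at least 10 in at least 3 libraries. As alternatives, the recovered reads were fitted with edgeR (4.0.16, quasi-likelihood) and DESeq2 (1.42.0), beside other pseudocounts, filters and scalings, a replicate block, removal of GC and length trends, and each library left out. The fit was tested on simulated data in which only genes more abundant than Hoxb1 and Hoxb2 were changed. That test therefore does not cover the low members. Symbols were matched to GENCODE vM1 on NCBIM37 (mm9), 22013 of 23353 and 38 of 38 members. Promoters came from RefSeq.

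The design text says that both lines were differentiated side by side on 3 different days, so the replicate number was taken to mark a shared day. The correlations of the deviations of same-numbered libraries from their group means were 0.111, 0.00933 and -0.101 across 13136 genes. These weak values do not show such a pairing, so the shared day remains an assumption.

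By the rule for named genes, members that passed the filter are named with their values, members below it with their reads, and other genes from lists where called or, for regulators, as examples. Some items are not reported here, though counts over all tested members include them. The lists were other TALE genes, genes flanking the clusters, signals and chromatin regulators, and markers of cell types. Members and lists were chosen with earlier results of these data known. Intervals of reads are exact Poisson intervals (95%) that cover counting error only.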

Additional observations from a re-analysis of the deposited data

How the results depend on the processing

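Of 221 values of tested members under 16 alternatives, 205 kept their direction and side of the threshold, 2 lost a call (Hoxb2, without wildtype replicate 2 or EVX1-Δfs replicate 1), 3 gained one (Hoxd9 with edgeR, Pbx2 with DESeq2 and without EVX1-Δfs replicate 2) and 11 changed sign. In a further 19 cases no adjusted p was given. All 60 values of Hoxb1, Hoxb2, Cdx2 and Meis2 were negative. The replicate block changed no other call of a member in limma. With the block in DESeq2, 1 member was called lower, Cdx2, since Hoxb1, Hoxb2 and Meis2 were given no adjusted p there. Signs turned only in members that were not called: Hoxd8 (-0.194 with edgeR, -0.17 with DESeq2, which gave it no adjusted p, -0.536 to 0.501 with each library left out), Meis3 (0.019 with GC and length trends removed, with or without the block), Pbx3 (-0.116 likewise, and -0.0109 to 0.0721 with each library left out) and Pbx4 (-0.0577 to 0.277 with each library left out).

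Over all genes, limma called 660 (273 higher, 387 lower), and 222 with the replicate block, 284 with the block in DESeq2, 283 with GC and length trends removed and 197 with both. Without each library in turn it called 219 (without EVX1-Δfs replicate 3) to 645. Of the calls 41.4% were higher, and 53.2% with upper-quartile scaling. The block and the loss of a library leave fewer degrees of freedom. The cause of the other shifts was not tested. Depth limits the 19 members below the filter, none above 22.6 normalized counts in any library.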
